A study of Mus musculus with 6 samples.

Results

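The 4 genes *Gpihbp1*, *Lpl*, *Cd36*, and *Fabp4* act in turn on the path by which muscle capillaries take fatty acids from the blood, and were followed in single cells of mouse tibialis anterior muscle (TAM). They were chosen by name, and all 4 are among the 12436 genes listed in the single-cell RNA-sequencing data. One library was made for each of 6 groups, control and hypothyroid mice that were uninjured (day 0) or at 5 or 14 days after injury (dpi), and 3 mice were pooled in each library. The mice were male, 3 to 5 months old, and all groups shared a B6;129 background with the allele tm1(Fucci2aR)Jkn at Gt(ROSA)26Sor, a Fucci cell cycle reporter used without Cre. The hypothyroid groups ate an iodine-deficient diet with 0.15% (w/w) propylthiouracil, which blocks thyroid hormone synthesis, from 3 weeks before injury, and the control groups ate the matched control diet. Injury was made by injecting cardiotoxin, a snake venom toxin that kills muscle fibers, at 50 μg/ml into the right muscle. The hypothyroid state is that of the whole animal, so each value is that of a cell type in a hypothyroid or control mouse and not of a cell type that lacks the hormone by itself.

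In muscle capillaries, triglyceride-rich lipoproteins are broken down on the luminal face of the endothelium by lipoprotein lipase, the product of *Lpl*. The enzyme is secreted by parenchymal and stromal cells and is carried across the endothelial cell and held at its surface by the anchor protein GPIHBP1. The released fatty acids are taken up with the help of the membrane receptor CD36 and are bound inside the cell by FABP4, a small cytosolic carrier that is also found in adipocytes and macrophages. Thyroid hormone receptors and the fatty acid sensing PPARs are nuclear receptors that bind DNA at repeats of the hexamer AGGTCA.

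In the authors' annotation (GRCm39), all 4 are protein-coding. *Gpihbp1* (ENSMUSG00000022579.11) spans chr15:75468477-75471331, and *Lpl* (ENSMUSG00000015568.17) spans chr8:69333143-69360101. *Cd36* (ENSMUSG00000002944.16) lies at chr5:17986688-18093800 and *Fabp4* (ENSMUSG00000062515.4) at chr3:10269148-10273637. Of the 4 genes, 1 matched the RefSeq table of promoters, *Cd36*, and the sequence below is shown because its level moved with injury. It is the 250 bases before the start that this table gives for *Cd36* (build GRCm38.p6, chr5:17835897-17836146, minus strand). Whether the gene has other starts was not looked at, and the span above is in another build. The capitals mark TGACCT, which is AGGTCA read on the other strand and begins 228 bases before the start.
Cd36 promoter: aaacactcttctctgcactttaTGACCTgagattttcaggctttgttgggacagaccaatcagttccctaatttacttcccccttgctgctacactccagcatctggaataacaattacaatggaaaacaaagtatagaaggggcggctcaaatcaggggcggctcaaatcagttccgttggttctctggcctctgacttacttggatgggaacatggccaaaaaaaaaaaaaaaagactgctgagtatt
The same 6 letters stand on either strand in 4607 of 32851 promoter windows of this length (14.0%), so the match describes the sequence and does not mark a binding site.

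Cells were placed in classes by lists of 10 marker genes that held none of the 4 genes. Of 11207 cells, 1224 were endothelial-like, 96 in the uninjured control library, 28 in the uninjured hypothyroid library, 134 and 35 at 5 dpi (control and hypothyroid), and 683 and 248 at 14 dpi. All 10 genes of the endothelial list, such as *Pecam1* and *Cdh5*, were found in the endothelial-like cells of every library, at a summed 5949 to 8356 CPM (UMIs of the genes scaled to 1000000 UMIs of the pooled cells). The median endothelial-like cell held 7 of the 10 markers, against 1 in mural-like cells and 0 in every other class and in unassigned cells. It also held 7 of 10 genes of the myocyte list, the muscle fiber RNA described with the time course. At the edge of the gate stood 77 cells with the minimum of 3 markers, and 182 of 1574 unassigned cells held 3 or more endothelial markers. The libraries held 2283740 to 23496509 unique molecular identifiers (UMIs, each a captured RNA molecule), with a median of 3634 to 8055 per cell. The libraries also shared cells. The same cell barcodes with the same values stood in files of different groups for 528 cells of the control library at 5 dpi and 1152 cells of the hypothyroid library at 14 dpi, which include 29 and 179 endothelial-like cells. Levels of the 4 genes in endothelial-, FAP-, and macrophage/monocyte-like cells are given with these cells and beside them without these cells. Shares after thinning, genes found together, and the further pathway genes include them.

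With 1 library per group no difference between groups could be tested. Levels are CPM over all cells of a class in a library, with 95% exact Poisson intervals, and ratios carry exact binomial intervals. These intervals cover counting error only, and not the spread between cells or between mice. Ratios past 2-fold are set against the share of all genes, among those with at least 20 UMIs over both pools, that went past 2-fold in the same comparison.

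*Gpihbp1* had the largest share of its UMIs in endothelial-like cells over all libraries together. Of its 3977 UMIs in all classes, 82.9% lay in endothelial-like cells, which were 10.9% of the cells, and 13.2% lay in unassigned cells. The endothelial-like share was 76.7% for *Fabp4*, 54.5% for *Cd36*, and 10.2% for *Lpl*. In the uninjured hypothyroid library *Fabp4* stood above *Gpihbp1* (83.8% against 15 of 20 UMIs). In the hypothyroid library at 5 dpi the endothelial-like share was 37.6% for *Fabp4* and 9.0% for *Cd36*, with 45.01% and 84.2% in macrophage/monocyte-like cells. *Lpl* was instead mostly in fibro-adipogenic progenitor (FAP)-like cells, connective tissue cells of the muscle, with 64.7% of its UMIs over all libraries, and 17.1% lay in macrophage/monocyte-like cells. The FAP-like share of *Lpl* ran from 94.7% in uninjured control muscle to 39.6% in the hypothyroid library at 5 dpi, where macrophage/monocyte-like cells held 53.6%. *Cd36* also had 26.8% of its UMIs in macrophage/monocyte-like cells. The enzyme and its anchor were thus found mainly in different cells. Outside endothelial-like cells *Gpihbp1* was highest in the unassigned cells of 14 dpi, at 202 CPM (179.6 to 226) in control and 180.2 CPM (156 to 207) in hypothyroid muscle, and in hypothyroid mural-like cells of 14 dpi, at 142 CPM (65.0 to 270, 9 UMIs). None of 231 myogenic progenitor-like cells held a *Gpihbp1* UMI, which allows up to 1.04 CPM (3 counts).

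**Figure D1:**
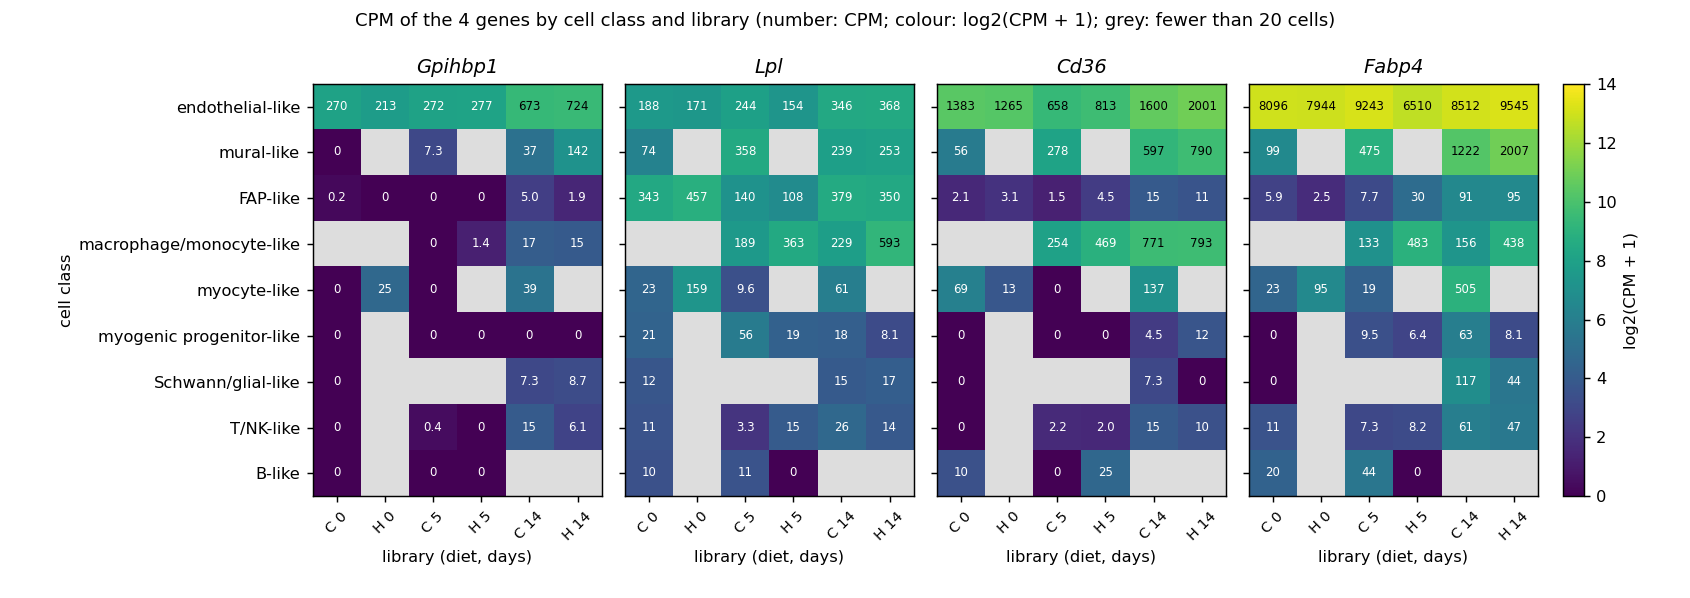
CPM of each gene (number in each box; colour is log2(CPM + 1)) by cell class (rows) and library (columns, C control and H hypothyroid, with the day after injury), with grey for pools under 20 cells. *Gpihbp1* stands out in the endothelial-like row, *Lpl* in the endothelial-like, mural-like, FAP-like, and macrophage/monocyte-like rows, and *Fabp4* in the endothelial-like row at 6510 to 9545 CPM.

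Depth differed between libraries, so shares of cells with a UMI were taken after each cell was thinned to 1000 UMIs, which left 974 of 1224 endothelial-like cells. *Fabp4* was found in 95.4% of them, *Cd36* in 69.9%, *Gpihbp1* in 43.1%, and *Lpl* in 26.7%. Before thinning the shares were 96.9%, 88.6%, 63.2%, and 49.0%, with a median of 2487 UMIs per cell. In T/NK-like cells, which should lack these genes and held a median of 3140 UMIs, thinned shares were 0.930% for *Fabp4* and *Lpl*, 0.651% for *Cd36*, and 0.279% for *Gpihbp1*. Every endothelial-like share lay far above this level of free RNA. By library, the thinned share of cells with *Gpihbp1* was 21.0% and 31.2% in uninjured control and hypothyroid muscle, 23.8% and 31.2% at 5 dpi, and 46.7% and 55.0% at 14 dpi. The hypothyroid shares at 0 and 5 dpi rest on 16 and 32 cells, and their intervals (11.02% to 58.7% and 16.1% to 50.0%) include the control shares.

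The 4 genes were found together in many cells. Among the 974 thinned cells, 13.1% held a UMI of all 4, 33.3% of 3, 32.1% of 2, 18.5% of 1, and 2.98% of none. At 14 dpi in the control library, cells with a *Gpihbp1* UMI more often held *Cd36* (83.1% of 254 cells) than cells without one (65.2% of 290 cells), and *Lpl* as well (33.1% against 21.0%). The hypothyroid library gave 90.8% of 109 and 71.9% of 89 cells for *Cd36*, and 34.9% and 28.1% for *Lpl*. In the hypothyroid library at 5 dpi, with few cells, *Cd36* was found in 5 of 10 cells with *Gpihbp1* and 12 of 22 without. These are descriptions of cells within a library, and the cells of a library are not replicates.

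The anchor *Gpihbp1* was at 270.2 CPM (206 to 349, 59 UMIs) in uninjured control and 213 CPM (119 to 352, 15 UMIs) in uninjured hypothyroid endothelial-like cells. It was at 272 CPM (239 to 307) in control and 277 CPM (222 to 342) in hypothyroid cells at 5 dpi, and at 673 CPM (643 to 704) and 724 CPM (679 to 771) at 14 dpi. The 4 values of days 0 and 5 overlapped in their intervals, and both values at 14 dpi lay above all of them. From 5 to 14 dpi it was 2.48-fold (2.17 to 2.83) higher in control and 2.61-fold (2.10 to 3.29) higher in hypothyroid cells. Without the shared cells, *Gpihbp1* was at 264 CPM in 105 control cells at 5 dpi and 793 CPM in 69 hypothyroid cells at 14 dpi.

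*Lpl*, the lipase itself, had the fewest UMIs of the 4 in the endothelial-like cells of each library. It was at 188 CPM (135 to 255) in control and 170.5 CPM (88.1 to 298) in hypothyroid uninjured cells, and at 346 CPM (324 to 368) and 368 CPM (336 to 402) at 14 dpi. At 5 dpi it was at 244 CPM (213 to 278, 228 UMIs) in control and 154 CPM (114 to 204, 49 UMIs) in hypothyroid cells. The hypothyroid value at 5 dpi was thus the lowest of the 6, but 1 of its 35 cells held 23 of the 49 UMIs and the 10 highest cells held 93.9%. From 5 to 14 dpi *Lpl* was 1.42-fold (1.23 to 1.64) higher in control and 2.38-fold (1.77 to 3.26) higher in hypothyroid cells. The hypothyroid ratio of 5 dpi to uninjured was 0.905 (0.475 to 1.87), and 0.303 without cells that held 3 or more markers of another class. The shared cells made little difference, with 255 CPM for control at 5 dpi and 356 CPM for hypothyroid at 14 dpi without them.

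*Cd36*, the fatty acid receptor, had its lowest CPM at 5 dpi in both diets. Its level was 1383 CPM (1231 to 1548) in control and 1265 CPM (1016 to 1556) in hypothyroid uninjured cells, 658 CPM (607 to 712) and 813 CPM (717 to 918) at 5 dpi, and 1600.0 CPM (1554 to 1647) and 2001 CPM (1926 to 2078) at 14 dpi. Both values at 5 dpi were below those of every other day, and the hypothyroid value at 14 dpi was the highest of all. The ratio of 5 dpi to uninjured was 0.476 (0.414 to 0.548) in control and 0.643 (0.503 to 0.827) in hypothyroid cells, and that of 14 to 5 dpi was 2.43 (2.23 to 2.65) and 2.46 (2.17 to 2.81). Without the shared cells the control value at 5 dpi was 687 CPM and the hypothyroid value at 14 dpi was 2007 CPM. The share of thinned cells with *Cd36* showed no like fall. In control, 33 cells held it and 29 did not uninjured, against 61 and 61 at 5 dpi. In hypothyroid muscle these were 7 and 9 cells, then 17 and 15. Median depth in control and hypothyroid cells was 1290.5 and 1110.5 UMIs uninjured and 4208.5 and 5958 UMIs at 5 dpi. The part of depth in the *Cd36* levels was not tested.

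*Fabp4*, the cytosolic carrier, had the most UMIs and varied by less than 1.5-fold over the days within a diet. It was at 8096 CPM (7723 to 8482) in control and 7944 CPM (7299 to 8630) in hypothyroid uninjured cells, 9243 CPM (9049 to 9440) and 6510 CPM (6232 to 6797) at 5 dpi, and 8512 CPM (8405 to 8620) and 9545 CPM (9380 to 9711) at 14 dpi. The library at 5 dpi from hypothyroid mice was the lowest, and the highest came from hypothyroid mice at 14 dpi. The ratio of 5 dpi to uninjured was 1.14 (1.09 to 1.20) in control and 0.820 (0.746 to 0.901) in hypothyroid cells, and that of 14 to 5 dpi was 0.921 (0.899 to 0.944) and 1.47 (1.40 to 1.54). The control ratio of 5 dpi to uninjured was 0.980 with every column of the files, 0.987 with thinned cells, and 0.996 when each cell counted equally, so its direction turned. Every column of the files includes later runs, some of which repeat cells of other groups. Without the shared cells, control at 5 dpi was at 9645 CPM and hypothyroid at 14 dpi at 9724 CPM.

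**Figure D2:**
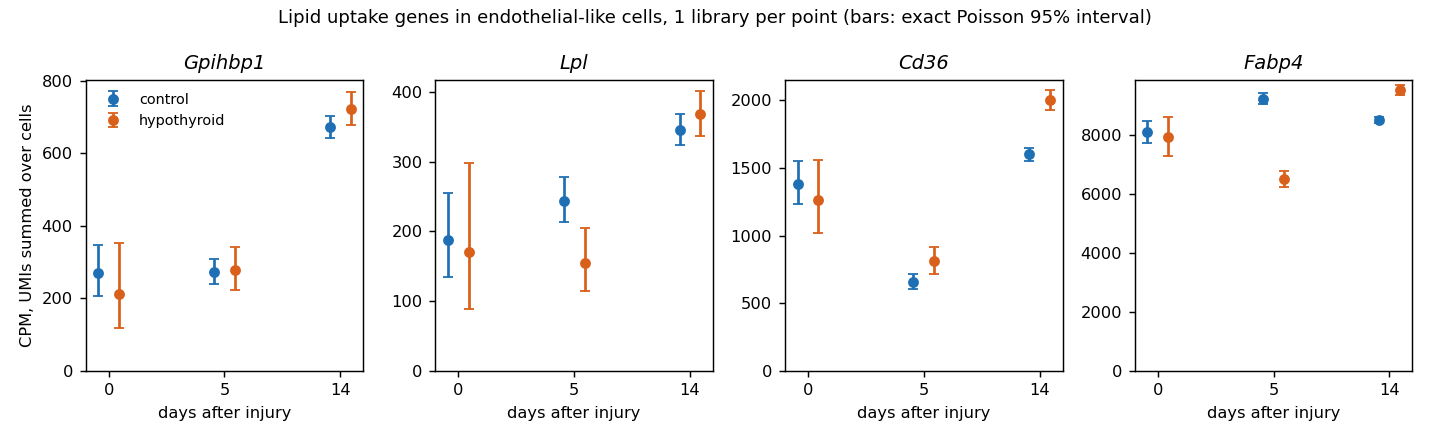
CPM of each gene in endothelial-like cells (vertical axis from 0, a scale for each gene) by day after injury, with 1 library per point and bars for the 95% exact Poisson interval. *Gpihbp1* was higher at 14 than at 5 dpi in both diets (673 against 272 and 724 against 277 CPM), and *Cd36* was lowest at 5 dpi (658 and 813 CPM).

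Among the 4 genes, *Cd36* alone went past 2-fold down from uninjured to 5 dpi in control cells (1 of 4), and none did in hypothyroid cells. With every column of the files, including later runs that partly repeat cells of other groups, the control *Cd36* ratio was 0.658, within 2-fold. In hypothyroid cells taken from clusters *Cd36* was at 0.494 and *Lpl* at 0.400, and *Lpl* was at 0.303 without cells of other markers and at 0.362 when each cell counted equally. Of all genes tested, 14.8% fell and 19.0% rose past 2-fold in control cells between these days, and 13.5% fell and 19.8% rose in hypothyroid cells. From 5 to 14 dpi, 2 of 4 rose past 2-fold in control cells (*Gpihbp1* and *Cd36*) and 3 of 4 in hypothyroid cells (*Gpihbp1*, *Lpl*, and *Cd36*). The background was 14.8% up and 4.86% down in control and 15.3% up and 5.20% down in hypothyroid cells. RNA of other cells in the endothelial-like pools moved over the same days. The summed level of the myocyte list, with 8 to 10 of 10 genes found, was 25290 and 27310 CPM in uninjured control and hypothyroid cells, 1959 and 148 CPM at 5 dpi, and 13240 and 4734 CPM at 14 dpi. The mural list was at 142 to 3155 CPM. RNA of FAPs was higher at 14 than at 5 dpi in both diets. The FAP list, with 5 to 10 of 10 genes found, was at 50.4 and 114 CPM in uninjured control and hypothyroid cells, 56.7 and 183 CPM at 5 dpi, and 569.8 and 280.2 CPM at 14 dpi. *Dcn*, a matrix gene of fibroblasts outside that list and named after its values were seen, was at 6.42 and 85.1 CPM at 5 dpi and 567 and 553 CPM at 14 dpi. Markers of endothelial subsets moved as well. Uninjured and at 5 and 14 dpi, the capillary list was at 1571, 600, and 1473 CPM in control and 1222, 866.5, and 1888 CPM in hypothyroid cells. The lymphatic list was at 1809, 232, and 1013 CPM and at 1208, 97.7, and 302.5 CPM. The arterial list was at 1300, 600, and 725 CPM and at 1293, 567, and 489 CPM. The venous list was at 2450, 1720, and 1624 CPM and at 412, 1881, and 1211 CPM. The parts of RNA from other cells and of the mix of endothelial cells in the time course were not tested.

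None of the 4 genes differed past 2-fold between diets in endothelial-like cells on any day. In uninjured muscle the ratios of hypothyroid to control were 0.789 (0.416 to 1.41) for *Gpihbp1*, 0.908 (0.435 to 1.76) for *Lpl*, 0.915 (0.714 to 1.16) for *Cd36*, and 0.981 (0.891 to 1.08) for *Fabp4*. All 4 intervals include 1, and those of *Gpihbp1* and *Lpl* do not exclude a level 2-fold lower in hypothyroid cells, as the hypothyroid pool held 15 and 12 UMIs of them. With every column of the deposited files, including later runs that partly repeat cells of other groups, the *Cd36* ratio was 0.390. Of 2769 genes tested there, 10.6% were past 2-fold up and 17.2% past 2-fold down.

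At 5 dpi the ratio was 1.02 (0.791 to 1.31) for *Gpihbp1*, 0.633 (0.455 to 0.865) for *Lpl*, 1.24 (1.06 to 1.43) for *Cd36*, and 0.704 (0.671 to 0.739) for *Fabp4*, against a median over all genes of 0.890. *Lpl* and *Fabp4* were lower in the hypothyroid library and *Cd36* higher, and of all genes 5.62% were past 2-fold up and 11.6% past 2-fold down. The *Lpl* ratio fell to 0.344 when endothelial cells were taken from clusters instead of the gate, and to 0.359 without cells that held 3 or more markers of another class. The *Gpihbp1* ratio was 2.06 when each cell was thinned to 1000 UMIs and 0.518 when every column of the deposited files was used. *Cd36* turned to 0.552 with every column.

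Macrophage RNA also differed between these 2 pools at 5 dpi. The macrophage list was at 1175 CPM (373 UMIs, 8 of 10 genes found) in the 35 hypothyroid endothelial-like cells and at 80.3 CPM (8 of 10 genes) in the 134 control ones, against 0 CPM in both uninjured libraries and 71.2 and 106 CPM at 14 dpi. The endothelial list was at 5949 and 8190 CPM in the same cells. Its part in the diet ratios was not tested.

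At 14 dpi, with the most cells, the ratio of hypothyroid to control was 1.08 (0.995 to 1.16) for *Gpihbp1*, 1.07 (0.954 to 1.19) for *Lpl*, 1.25 (1.19 to 1.31) for *Cd36*, and 1.12 (1.10 to 1.15) for *Fabp4*. All 4 were above 1 and above the median over all genes (0.955), but by less than 1.3-fold, and the intervals of *Gpihbp1* and *Lpl* include 1. Of 10059 genes, 2.12% were past 2-fold up and 7.70% past 2-fold down. Without cells that held 3 or more markers of another class the ratios were 1.36, 1.39, 1.59, and 1.29.

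The endothelial-like cells of 14 dpi were then divided by arterial markers, such as *Gja4* and *Sox17*, and venous markers, such as *Vwf* and *Ackr1*. In the control library, *Gpihbp1* was at 529 CPM in 163 arterial cells, 663 CPM in 145 venous cells, and 1124 CPM in 136 cells with no gene of either list. *Cd36* was at 1750.0, 1264, and 2567 CPM, and *Fabp4* at 8709, 8537, and 10780 CPM in the same subsets. *Lpl* was at 287, 301, and 462 CPM. Among these 3 subsets, each of the 4 genes was highest in the cells of neither list. The subsets do not cover all 683 control and 248 hypothyroid endothelial-like cells of 14 dpi. Cells with too few or mixed arterial and venous markers, and lymphatic cells, are in none of them. The capillary marker *Car4* was at 57.4, 57.8, and 154 CPM in the 3 subsets of the control library, and at 46.1, 35.9, and 30.6 CPM in those of the hypothyroid library. Those cells held fewer UMIs by the way they were chosen, with a median of 982 against 3391 in arterial and 4286 in venous cells. After thinning, the share of cells with *Gpihbp1* was 41.6% in arterial, 32.8% in venous, and 65.7% in cells of neither list, while that of *Lpl* was 22.8%, 27.6%, and 28.4%.

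In the hypothyroid library at 14 dpi, *Gpihbp1* was at 783 CPM in 40 arterial cells, 608 CPM in 53 venous cells, and 917 CPM in 56 cells of neither list. Venous cells were lower than cells of neither list here too, with a ratio of 0.663 (0.521 to 0.849) for *Gpihbp1* and 0.584 (0.507 to 0.674) for *Cd36*, against 0.590 (0.505 to 0.691) and 0.493 (0.443 to 0.548) in control. Arterial cells gave other ratios in the 2 libraries. Their ratio to cells of neither list was 0.854 (0.661 to 1.11) for *Gpihbp1* and 1.06 (0.918 to 1.23) for *Cd36* in hypothyroid muscle, and 0.470 (0.399 to 0.556) and 0.682 (0.616 to 0.756) in control. Set against venous cells, arterial *Gpihbp1* was lower in control (0.797, 0.704 to 0.902) and higher in hypothyroid muscle (1.29, 1.07 to 1.56), and arterial *Cd36* was higher in both (1.38, 1.28 to 1.496, and 1.82, 1.63 to 2.02). Whether the libraries differ in this was not tested. Of the hypothyroid cells, 28 arterial, 39 venous, and 40 of neither list are shared ones, and the 12, 14, and 16 that remain are too few for a level.

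**Figure D3:**
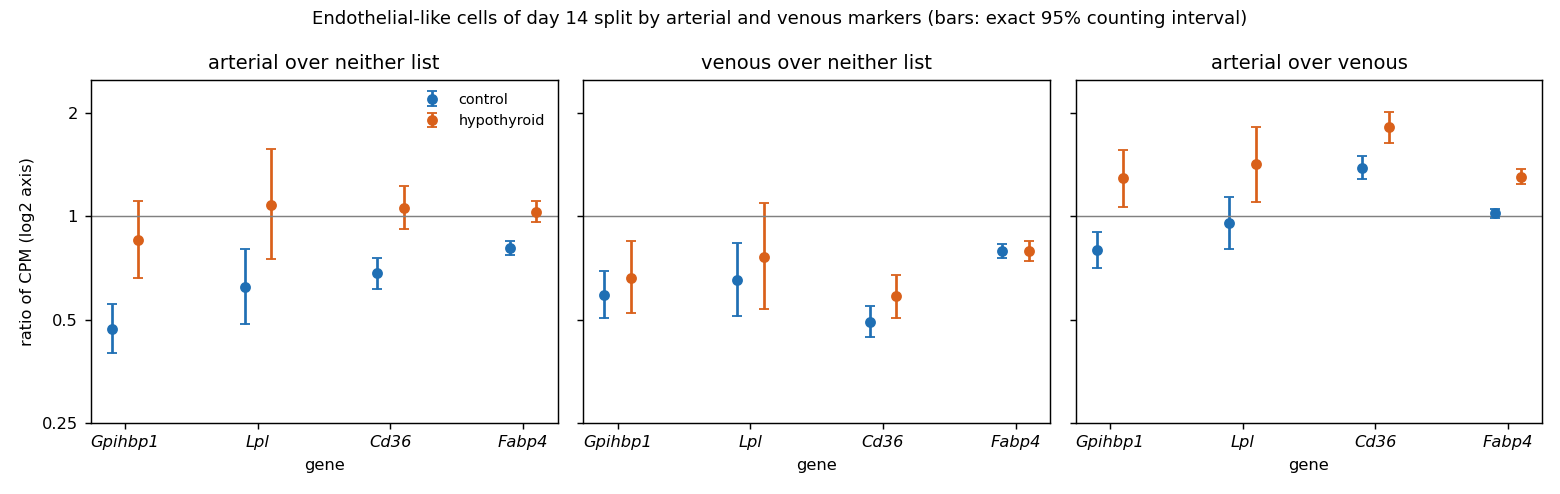
Ratio of CPM between subsets of endothelial-like cells at 14 dpi (vertical log2 axis, the line at 1 is no difference) for each gene and diet, with 95% exact counting intervals. All venous ratios to cells of neither list lie below 1 (0.493 to 0.792), whereas arterial cells of the control library lie at 0.470 to 0.808 and those of the hypothyroid library at 0.854 to 1.08.

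Lymphatic cells held less of these genes. In 20 endothelial-like cells with 3 or more lymphatic markers, from all libraries, *Fabp4* was at 91.7 CPM (12 UMIs), *Gpihbp1* at 68.8 CPM (9 UMIs), *Cd36* at 22.9 CPM (3 UMIs), and *Lpl* at 15.3 CPM (2 UMIs). They thus stood far below the class as a whole, which was at 8740.0 CPM for *Fabp4* and 576 CPM for *Gpihbp1*. Only 18 cells held 3 or more genes of a cell cycle list, 9 of them from the control library at 5 dpi, with 93 *Gpihbp1*, 77 *Lpl*, 187 *Cd36*, and 2487 *Fabp4* UMIs. *Vwf*, which marks larger vessels, divided *Gpihbp1* and *Lpl* in the control library at 14 dpi, where cells with a *Vwf* UMI were at 0.684 (0.612 to 0.763) and 0.695 (0.595 to 0.809) of the cells without, while *Fabp4* was at 1.01 (0.979 to 1.03). In the hypothyroid library at 14 dpi the ratios were 0.832 (0.699 to 0.986) for *Gpihbp1* and 1.08 (0.862 to 1.35) for *Lpl*, where 26 of 36 cells with *Vwf* are shared. In control at 5 dpi they were 1.06 (0.820 to 1.365) and 0.904 (0.688 to 1.18).

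Mural-like cells, the pericytes and smooth muscle cells that wrap small vessels, also held *Cd36*, *Fabp4*, and *Lpl*. In control muscle *Lpl* was at 74.0 CPM uninjured (22 cells), 358 CPM at 5 dpi (27 cells), and 239 CPM at 14 dpi (144 cells), and in hypothyroid muscle at 253 CPM at 14 dpi (30 cells). *Fabp4* in the same pools was at 98.7, 475, 1222, and 2007 CPM, and *Cd36* at 55.5, 278, 597, and 790.1 CPM. Of the 30 hypothyroid cells at 14 dpi 22 are shared with another file, and the 8 that remain are too few for a level. The 21 unshared control cells at 5 dpi held 368 CPM of *Lpl*, 398 CPM of *Fabp4*, and 281 CPM of *Cd36*. The hypothyroid pools of days 0 and 5 held 9 mural-like cells each, with 9 and 10 *Cd36* UMIs, 11 and 31 *Fabp4* UMIs, and 1 and 0 *Lpl* UMIs. Endothelial RNA also differed between these pools, though not from 5 to 14 dpi in control muscle. Its part in these values was not tested. The endothelial list, with 6 to 10 of 10 genes found, was at 234 CPM in uninjured control, 665 and 668 CPM in control at 5 and 14 dpi, and 1391 CPM in hypothyroid mural-like cells at 14 dpi. In control muscle at 14 dpi, mural-like cells held 16.3 *Cd36* UMIs and 6.5 *Lpl* UMIs for each *Gpihbp1* UMI, against 2.38 and 0.514 in endothelial-like cells, and 33.2 *Fabp4* UMIs against 12.7. In hypothyroid muscle at 14 dpi the ratio for *Cd36* was 5.56 in mural-like and 2.77 in endothelial-like cells, that for *Lpl* was 1.78 and 0.508, and that for *Fabp4* was 14.1 and 13.2. The mural-like ratios rest on 16 and 9 *Gpihbp1* UMIs.

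FAP-like cells carried the largest share of *Lpl* UMIs in each library but the hypothyroid one at 5 dpi. Its level there was 343 CPM (327 to 360) in control and 457 CPM (425 to 492) in hypothyroid uninjured muscle, 140 CPM (131 to 149) and 108 CPM (103 to 114) at 5 dpi, and 379 CPM (367 to 391) and 350 CPM (337 to 363) at 14 dpi. Both diets had their lowest CPM at 5 dpi, by more than the counting intervals. CPM is relative to all UMIs of the cells, and depth differed. The median in control and hypothyroid cells was 5641 and 4431.5 UMIs uninjured, 13176 and 14232 at 5 dpi, and 5720 and 9402 at 14 dpi. In control, 792 uninjured cells held 1626 *Lpl* UMIs and 419 cells at 5 dpi held 854. In hypothyroid muscle, 314 cells held 734 and 834 cells held 1371. The part of depth was not tested. From uninjured to 5 dpi the ratio was 0.407 (0.375 to 0.443) in control and 0.237 (0.217 to 0.260) in hypothyroid cells. Of all genes, 12.7% fell past 2-fold in control FAP-like cells over those days and 21.2% in hypothyroid ones. At 14 dpi *Lpl* was 2.71-fold (2.52 to 2.93) and 3.23-fold (3.03 to 3.44) higher than at 5 dpi, where 10.2% of genes rose past 2-fold in control and 11.8% in hypothyroid cells. Without the shared cells the control value at 5 dpi was 143 CPM and the hypothyroid value at 14 dpi was 319.7 CPM.

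*Lpl* was not even among FAP-like cells. In uninjured control muscle, cells with a UMI of *Pi16*, which marks progenitor-type FAPs, held 184.9 CPM (169 to 202) of *Lpl* and cells without one 549 CPM (517 to 582). The hypothyroid uninjured library gave 303 CPM with and 681 CPM without. At 14 dpi the values were 308 and 578 CPM in control and 309 and 473 CPM in hypothyroid muscle. At 5 dpi both kinds of cell were close, with 153 CPM with and 129 CPM without *Pi16* in control, and 100.1 and 114 CPM in hypothyroid cells. In control muscle the level thus went from 549 to 129 CPM in cells without *Pi16* and from 184.9 to 153 CPM in cells with it. In hypothyroid muscle both kinds of cell were lower at 5 dpi, at 114 after 681 CPM without *Pi16* and at 100.1 after 303 CPM with it. When the shared cells were left out, the hypothyroid values at 14 dpi were 297 CPM with and 385 CPM without *Pi16*. The control values at 5 dpi were then 152 and 135 CPM. The cells were not matched for depth. In control muscle, cells with and without *Pi16* held a median of 7494 and 4410 UMIs uninjured. They held 12984 and 13364.5 UMIs at 5 dpi and 6647 and 3687.5 UMIs at 14 dpi. In hypothyroid muscle the medians were 6057 and 3696, 13595 and 14383, and 10163 and 7738 UMIs on the same days. The part of depth in these values was not tested.

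**Figure D4:**
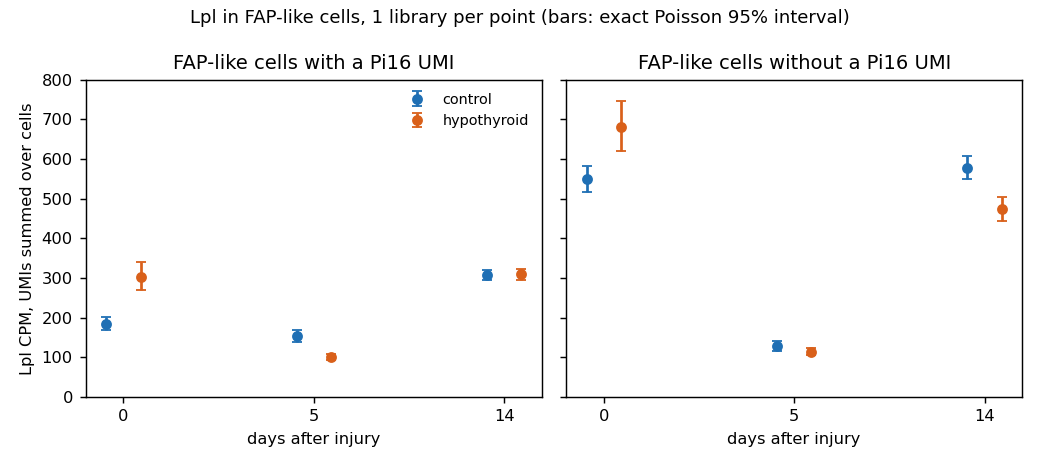
*Lpl* CPM in FAP-like cells with a *Pi16* UMI (left) and without one (right) by day after injury, with 1 library per point and 95% exact Poisson intervals. Cells without *Pi16* are at 473 to 681 CPM on days 0 and 14 and at 114 to 129 CPM at 5 dpi.

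The other 3 genes were low in FAP-like cells. *Gpihbp1* was at 0 to 5.03 CPM and *Cd36* at 1.47 to 14.8 CPM, against up to 15.3 CPM of either gene in T/NK-like cells at 14 dpi. That T/NK-like level rests on 3 UMIs of each gene in 74 control cells. *Fabp4* was at 5.91 and 2.49 CPM in uninjured control and hypothyroid cells, 7.69 and 29.6 CPM at 5 dpi, and 90.5 and 95.1 CPM at 14 dpi, while T/NK-like cells held 61.4 and 46.9 CPM at 14 dpi. In the hypothyroid libraries single cells held a large share of these UMIs. At 14 dpi 1 of 889 cells held 509 of 809 *Fabp4* UMIs, and at 5 dpi 1 of 834 held 144 of 374. In control muscle at 14 dpi the 935 UMIs were spread over 429 cells, and the 10 highest held 27.7%. Without the shared cells, hypothyroid FAP-like cells at 14 dpi held 23.1 CPM of *Fabp4*. None of the 10 genes of the adipocyte list, which could name such cells, is among the genes analysed here.

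Macrophage/monocyte-like cells held *Lpl*, *Cd36*, and *Fabp4*, and *Gpihbp1* at 0 to 16.5 CPM in the injured libraries (28.4 CPM, 14.2 to 50.9, at 14 dpi in hypothyroid cells without the shared ones). Uninjured muscle gave 2 and 7 such cells, so only the injured libraries were compared, with 359 control and 615 hypothyroid cells at 5 dpi and 99 and 134 cells at 14 dpi. *Lpl* was at 189 CPM (171 to 209) in control and 363 CPM (347 to 380) in hypothyroid cells at 5 dpi, and at 229 CPM (185.4 to 279) and 593 CPM (549 to 639) at 14 dpi. *Fabp4* was at 133 CPM (118 to 149) and 483 CPM (465 to 503) at 5 dpi and at 156 CPM (120 to 198) and 438 CPM (401 to 478) at 14 dpi. *Cd36* was at 254 CPM (233 to 277) and 469 CPM (450 to 488) at 5 dpi but at 771 CPM (690 to 859) and 793 CPM (743 to 847) at 14 dpi, where the intervals overlap. The hypothyroid values of *Lpl* and *Fabp4* lay above the control ones on both days, beyond counting error.

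The ratios of hypothyroid to control at 5 dpi were 3.64 (3.21 to 4.14) for *Fabp4*, 1.92 (1.72 to 2.15) for *Lpl*, and 1.84 (1.68 to 2.03) for *Cd36*, so that 1 of the 3 was past 2-fold, where 9.0% of genes were past 2-fold up and 17.3% down. At 14 dpi they were 2.82 (2.18 to 3.70) for *Fabp4*, 2.59 (2.09 to 3.24) for *Lpl*, and 1.03 (0.906 to 1.17) for *Cd36*, so that 2 of 3 were past 2-fold, where 8.85% of genes were up and 6.49% down. Without the shared cells, control cells at 5 dpi were at 172 CPM for *Lpl*, 255 CPM for *Cd36*, and 132 CPM for *Fabp4*, and 39 hypothyroid cells at 14 dpi at 809, 899, and 540.2 CPM. With a gate of at least 5 markers the ratios at 5 dpi were 1.26 for *Lpl*, 1.29 for *Cd36*, and 2.49 for *Fabp4*. When each cell counted equally, *Fabp4* was at a ratio of 6.55 at 5 dpi and *Lpl* at 1.47 at 14 dpi, and with thinned cells *Fabp4* was at 1.21 at 14 dpi. In hypothyroid cells at 14 dpi, 10 of 134 cells held 69.5% of the *Lpl* UMIs. Other RNA in this class moved with the diets as well. Control and hypothyroid cells held 9398 and 18830 CPM of the macrophage list at 5 dpi and 14100.0 and 20860 CPM at 14 dpi, with 10 of 10 genes found in each. The myocyte list, also with all 10 genes, was at 1375 and 245 CPM at 5 dpi and at 14010 and 3724 CPM at 14 dpi. Their part in the diet ratios was not tested.

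The share of these cells with *C1qa* also differed between the libraries of the diets. A UMI of *C1qa*, a complement gene of mature macrophages that is also on the list used to gate them, was found in 94 of 359 control cells (26.2%) and 480 of 615 hypothyroid cells (78.0%) at 5 dpi, and in 66 of 99 (66.7%) and 118 of 134 (88.1%) at 14 dpi. After thinning to 1000 UMIs the shares were 20.9% (16.8% to 25.5%) and 68.0% (64.1% to 71.8%) at 5 dpi, and 49.5% (38.9% to 60.0%) and 68.99% (60.2% to 76.8%) at 14 dpi. In T/NK-like cells, which should lack the gene, the thinned share was 0.372%, with a median depth of 3140 UMIs against 5681 in the macrophage/monocyte-like cells. At 5 dpi, *Lpl* was at 515 CPM in control cells with *C1qa* and 36.3 CPM in those without, and at 411 and 109 CPM in the hypothyroid ones. *Cd36* was at 542.5 and 119.5 CPM in control and 532 and 139 CPM in hypothyroid cells, and *Fabp4* at 316 and 46.9 CPM and at 558.5 and 91.2 CPM. At 5 dpi all 3 genes were thus higher in cells with *C1qa*, in both diets. In control muscle at 14 dpi the ratio of cells with to cells without *C1qa* was 0.574 (0.377 to 0.872) for *Lpl*, 1.11 (0.881 to 1.40) for *Cd36*, and 3.05 (1.58 to 6.46) for *Fabp4*, so that *Lpl* was lower in cells with *C1qa* there.

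Among cells with *C1qa* at 5 dpi, the ratio of hypothyroid to control was 0.799 (0.711 to 0.900) for *Lpl*, 0.981 (0.877 to 1.10) for *Cd36*, and 1.77 (1.53 to 2.05) for *Fabp4*. The higher *Lpl* and *Cd36* of the whole class were therefore not seen within these cells, and that of *Fabp4* was seen at a smaller size. Among cells without *C1qa* the ratios were 3.02 (2.12 to 4.34), 1.16 (0.906 to 1.48), and 1.94 (1.38 to 2.75). At 14 dpi, *Lpl* in control cells with *C1qa* was at 178 CPM and in hypothyroid ones at 575 CPM, a ratio of 3.23 (2.39 to 4.44), and *Fabp4* at 209 and 458 CPM, a ratio of 2.19 (1.66 to 2.96), while *Cd36* was at 801 and 747 CPM (0.933, 0.800 to 1.09). Leaving out the shared cells, the 34 hypothyroid cells with *C1qa* at 14 dpi gave ratios of 5.03 (3.69 to 6.997) for *Lpl*, 2.43 (1.78 to 3.35) for *Fabp4*, and 1.03 (0.859 to 1.24) for *Cd36*, and at 5 dpi *Lpl* with *C1qa* stayed at 0.799 (0.698 to 0.917).

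**Figure D5:**
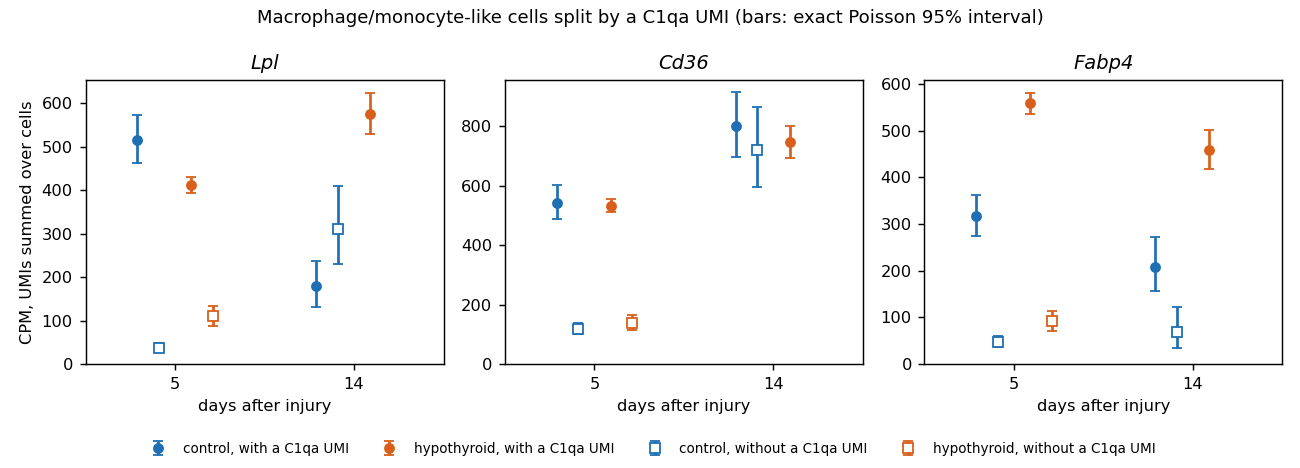
CPM of *Lpl*, *Cd36*, and *Fabp4* in macrophage/monocyte-like cells with (filled circles) and without (open squares) a *C1qa* UMI at 5 and 14 dpi, with 95% exact Poisson intervals; hypothyroid cells without *C1qa* at 14 dpi were too few to plot. At 5 dpi cells with *C1qa* were at 515 (control) and 411 CPM (hypothyroid) for *Lpl*, and cells without at 36.3 and 109 CPM.

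The order of the classes by *Lpl* level differed between libraries. In uninjured control muscle FAP-like cells (343 CPM) stood above endothelial-like (188 CPM) and mural-like cells (74.0 CPM), with no overlap of neighbouring intervals. In control muscle at 5 dpi mural-like (358 CPM) and endothelial-like cells (244 CPM) stood above FAP-like cells (140 CPM). At 14 dpi the control order was again FAP-like (379 CPM), endothelial-like (346 CPM), and mural-like cells (239 CPM). In hypothyroid muscle at 14 dpi macrophage/monocyte-like cells led (593 CPM), and endothelial-like (368 CPM) and FAP-like cells (350 CPM) overlapped. When each cell counted equally, endothelial-like cells led there with 503 CPM, and FAP-like and macrophage/monocyte-like cells were at 432 and 430.2 CPM. For *Gpihbp1* and *Fabp4* endothelial-like cells led in all 6 libraries, among classes with at least 20 cells. For *Cd36* they led as well, ahead of macrophage/monocyte-like cells at 5 and 14 dpi.

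The genes with the levels most like these were found by Pearson correlation of log2(CPM + 1) over 40 pools of a class and library, among 11556 genes. The pools of a library share its depth and free RNA, so these values are descriptions. *Gpihbp1* was closest to the junction genes *Cdh5* (r = 0.951) and *Cldn5* (0.938), then *Robo4* (0.911), *Sox17* (0.909), and *Rasip1* (0.902). *Fabp4* was closest to *Cldn5* (0.897), *Cd93* (0.895), *Gpihbp1* (0.889), *Rasip1* (0.885), and *Flt1* (0.876), and *Cd36* to *Fabp4* (0.855), *Cd93* (0.851), *Scarf1* (0.823), *Adgrf5* (0.808), and *Tie1* (0.808). *Cdh5*, *Cldn5*, *Sox17*, and *Tie1* are on the lists used to gate or divide endothelial-like cells. *Lpl* stood apart, closest to *Tgm2* (0.843), *Sash1* (0.830), *Anxa3* (0.828), *Gm34455* (0.821), and *Adam15* (0.812), and its r with *Gpihbp1* was 0.511.

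Of 62 further genes of the pathway, 54 were measured, and they were counted in endothelial-like cells. Between diets in uninjured muscle, 24 of them had at least 20 UMIs, of which 2 were past 2-fold up, 3 past 2-fold down, and 19 within, with a median ratio of 0.729, where 10.6% of all genes were up and 17.2% down. At 5 dpi 4 of 38 were up, 8 down, and 26 within, with a median of 0.776 (all genes 5.62% up and 11.6% down). At 14 dpi none of 49 was up, 5 were down, and 44 were within, with a median of 0.762 (all genes 2.12% up and 7.70% down). These medians lie below those of all genes (0.961, 0.890, and 0.955), while the ratios of *Cd36* and *Fabp4* at 14 dpi lay above 1.

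Named by a rule of at least 50 UMIs in the higher pool, the genes past 2-fold in uninjured muscle were *Aqp1*, a water channel, at 640 CPM in hypothyroid and 1566 CPM in control cells (0.408, 0.292 to 0.558), and *Nrp1*, a VEGF co-receptor (0.494, 0.319 to 0.739). At 5 dpi the higher ones were *Apoe*, a lipoprotein component, at 826 and 63.1 CPM (13.1-fold, 9.83 to 17.7), *Fabp5*, a fatty acid carrier related to *Fabp4*, at 1909 and 529 CPM (3.61-fold, 3.20 to 4.08), and *Plin2*, a lipid droplet coat gene (2.38-fold, 1.58 to 3.57). These 3 are also macrophage genes, and were higher in the pool with 1175 CPM of the macrophage list. The part of macrophage RNA in their ratios was not tested. The 5 lowest at 5 dpi were *Scarb1*, the HDL receptor (0.399), *Meox2*, a transcription factor of capillary fatty acid transport (0.434), *Cavin2*, a caveolar coat gene (0.461), *Hspg2*, the matrix proteoglycan perlecan (0.463), and *Cd300lg*, a capillary surface receptor (0.476). At 14 dpi the 5 lower genes were the proprotein convertases *Pcsk6* (0.156, 4 and 54 UMIs) and *Pcsk5* (0.157, 5 and 67 UMIs), the apelin receptor *Aplnr* at 26.0 and 133 CPM (0.196, 0.134 to 0.277), the muscle fatty acid carrier *Fabp3* at 21.6 and 71.6 CPM (0.301, 0.197 to 0.446), and apelin, *Apln* (0.335, 0.153 to 0.657). At that time the myocyte list was at 4734 CPM in hypothyroid and 13240 CPM in control endothelial-like cells, and its part in *Fabp3* was not tested.

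Over time, 9 of 37 pathway genes rose and 12 fell past 2-fold from uninjured to 5 dpi in control endothelial-like cells, and 7 of 23 rose and 6 fell in hypothyroid ones. Of all genes 19.0% rose and 14.8% fell in control, and 19.8% rose and 13.5% fell in hypothyroid cells. From 5 to 14 dpi, 18 of 48 rose and none fell in control, and 14 of 43 rose and 3 fell in hypothyroid cells, where 14.8% and 15.3% of all genes rose and 4.86% and 5.20% fell. *Aqp1* rose 2.08-fold in control, from 805 to 1676 CPM, and 3.42-fold in hypothyroid cells, from 441 to 1509 CPM. *Tcf15*, a transcription factor that acts with *Meox2*, rose 3.07-fold and 3.27-fold, and *Cavin2* 2.67-fold and 4.82-fold. These 3 were picked after their values were seen, as genes that rose in both diets like *Gpihbp1* and *Cd36*.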

How the data were processed

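Single-cell libraries (10x 3′ chemistry) of TAM were analysed, 1 for each of 6 groups. Per the study's methods, the authors used Partek Flow (version 11.0) and its Cell Ranger aligner to map reads to mm39 with GENCODE M30, filtered cells, and deposited log2(CPM + 1) values per gene and cell.

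To recover UMIs, the commonest positive value in a cell was set to 1 UMI. This made 99.934% of 39334018 values whole within 0.1. Each file's columns form runs of sorted barcodes, and since later runs repeat cells of other groups, only first runs were used (11207 of 20269 columns). Whether a first run belongs to its label could not be checked. No cells were filtered and no doublets removed.

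A cell joined the class whose 10-gene list had most genes with a UMI, with at least 3 and a lead of at least 2. The myocyte list competed only for cells with under 3 genes of every other list (at least 8 of 10). Levels of pools under 20 cells are given as UMI counts. Pathway genes were named when past 2-fold between diets given 50 or more UMIs in the pool with more, at most the 5 largest each way. The members and lists were chosen with earlier results of these data known. The recovery and the ratios were tested on simulated data. Shares have Clopper-Pearson intervals. Software was Python 3.11.15, numpy 2.4.6, scipy 1.17.1, pandas 2.3.3, leidenalg 0.10.2, and matplotlib 3.10.9. Alternatives were a stricter gate, Leiden clusters, all columns, shared cells left out, cells with other markers left out, thinning, and each cell counting equally.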

Additional observations from a re-analysis of the deposited data

Results flagged for a closer look

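With 1 library per group, a result was taken up when the counting intervals of the same contrast lay on opposite sides of 1 in different groups. The differences themselves were not tested. In endothelial-like cells the *Fabp4* ratio of hypothyroid to control was 0.704 at 5 dpi and 1.12 at 14 dpi. The *Fabp4* ratio of 5 dpi to uninjured was 1.14 in control and 0.820 in hypothyroid cells, and that of 14 to 5 dpi was 0.921 in control and 1.47 in hypothyroid cells. The hypothyroid library at 5 dpi, with 35 endothelial-like cells, enters 3 of these 6 values. The control ratio of 1.14 was 0.980 with every column of the files, 0.987 with thinned cells, and 0.996 when each cell counted equally.

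In FAP-like cells the *Lpl* ratio of hypothyroid to control was 1.33 uninjured, 0.776 at 5 dpi, and 0.923 at 14 dpi. The *Lpl* ratio of 14 dpi to uninjured was 1.105 in control and 0.765 in hypothyroid FAP-like cells. The *Cd36* ratio there was 3.06 at 5 dpi (57 and 9 UMIs) and 0.762 at 14 dpi (96 and 153 UMIs), at levels near those of T/NK-like cells. In hypothyroid FAP-like cells at 14 dpi, 1 cell held 38 of the 96 *Cd36* UMIs, and without the shared cells the level was 6.15 CPM and the ratio 0.415 (0.231 to 0.696).

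In macrophage/monocyte-like cells with a *C1qa* UMI the *Lpl* ratio of hypothyroid to control was 0.799 at 5 dpi and 3.23 at 14 dpi. At 14 dpi 10 of the 134 hypothyroid cells of the whole class held 69.5% of its *Lpl* UMIs.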

How the results depend on the processing

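Of 140 recomputed endothelial ratios (20 ratios under 7 alternatives), 90 stayed within their main interval, 46 moved beyond it, and 4 turned direction, where only a ratio whose main interval leaves out 1 counts as turned; the causes were not tested. For macrophage/monocyte-like cells 11 of 24 stayed and 13 moved, and for *Lpl* in FAP-like cells 11 of 16 stayed and 5 moved, under alternatives chosen after seeing the data. Values are ratios of hypothyroid to control (diet) or of 5 dpi to uninjured unless given otherwise. All columns include later runs, some of which repeat cells of other groups, so values with all columns can mix groups.

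With all columns, diet ratios were 0.390 for *Cd36* and 0.853 for *Fabp4* uninjured, 0.518 for *Gpihbp1*, 0.552 for *Cd36* (turned) and 0.836 for *Fabp4* at 5 dpi, and 1.10 for *Cd36* and for *Fabp4* at 14 dpi. Those of 5 dpi to uninjured were 0.658 for *Cd36* and 0.980 for *Fabp4* (turned) in control, and 0.933 and 0.961 in hypothyroid cells. With clusters, *Fabp4* was at 1.09, 0.742, and 1.17 on the 3 days, *Lpl* at 0.344 at 5 dpi, and hypothyroid 5 dpi to uninjured at 0.400 for *Lpl* and 0.494 for *Cd36*. Without shared cells, *Gpihbp1* was at 1.18 at 14 dpi, macrophage *Lpl* at 3.54 at 14 dpi, and hypothyroid FAP *Lpl* at 2.95 (14 to 5 dpi). Without cells of other markers, *Lpl* was at 0.359 and *Fabp4* at 0.753 at 5 dpi, and the 4 genes at 1.36, 1.39, 1.59, and 1.29 at 14 dpi. There, 5 dpi to uninjured was 0.740 for *Gpihbp1* and 1.08 for *Fabp4* in control and 0.303 for *Lpl* in hypothyroid cells.

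With thinned cells, *Fabp4* was at 1.47, 0.932, and 1.235 on the 3 days, *Gpihbp1* at 2.06 and 1.40 and *Lpl* at 0.397 and 1.23 at 5 and 14 dpi, and *Cd36* at 1.34 at 14 dpi. Control 5 dpi to uninjured was 0.696 for *Gpihbp1* and 0.987 for *Fabp4* (turned), and hypothyroid *Fabp4* was at 0.626. Macrophage ratios were 2.16 (*Lpl*), 2.08 (*Cd36*), and 6.002 (*Fabp4*) at 5 dpi and 1.82 (*Lpl*) and 1.21 (*Fabp4*) at 14 dpi, and hypothyroid FAP *Lpl* was at 2.84 (14 to 5 dpi). With a gate of 5 markers, *Fabp4* was at 0.768 uninjured and, for 5 dpi to uninjured, 1.065 in control and 0.948 in hypothyroid cells, and macrophage ratios at 5 dpi were 1.26 (*Lpl*), 1.29 (*Cd36*), and 2.49 (*Fabp4*). With each cell counting equally, *Fabp4* was at 1.22, 0.977, and 1.26 on the 3 days, *Lpl* at 0.386 at 5 dpi, and *Gpihbp1* at 1.32 and *Cd36* at 1.45 at 14 dpi. Then 5 dpi to uninjured was 0.687 for *Gpihbp1* and 0.996 for *Fabp4* (turned) in control and 0.362 for *Lpl* in hypothyroid cells. Macrophage ratios were 1.66 (*Lpl*) and 6.55 (*Fabp4*) at 5 dpi and 1.47 (*Lpl*) and 0.801 (*Cd36*) at 14 dpi, and FAP *Lpl* was at 0.461 (control, 5 dpi to uninjured), 2.44 (control, 14 to 5 dpi), and 2.72 (hypothyroid, 14 to 5 dpi).

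No paired analysis was possible because each group had 1 library, which also leaves no replicate to leave out. Depth limits the uninjured hypothyroid pool most, with 28 endothelial-like cells.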
